A study of Mus musculus with 18 samples.

Results

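The TGF-beta and BMP pathway with the Id genes was followed through 3 sorted populations of mouse mammary cells by 41 genes: 8 ligand genes, 5 genes of latent binding proteins and ligand processing, 10 receptor genes, 5 signal-carrying Smad genes, 4 genes of inhibitory Smads and co-repressors, 4 secreted antagonist genes, the TGF-beta-induced matrix gene Tgfbi and the 4 Id genes. The members were chosen by name, as every probe set of a pair of expression chips whose annotated gene symbol was 1 of the 41. This gave 96 of the 45037 probe sets on both chips, 74 on chip A and 22 on chip B. Only probe sets with a signal of 300 or more in at least 3 of their chip's 9 arrays were tested. Of the 96 probe sets 89 met this and 7 did not, and 40 of the 41 genes kept at least 1. The exception was Nog, the gene of the BMP antagonist noggin, whose single probe set was over 300 in 1 MYO sample (767) and 1 MaSC sample (683) and nowhere else.

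TGF-beta family ligands are secreted dimers, and the TGF-betas leave the cell in a latent complex bound to matrix proteins. Free ligand brings together type I and type II receptor kinases, which phosphorylate Smad1 and Smad5 after BMP, or Smad2 and Smad3 after TGF-beta and activin, and these move to the nucleus with Smad4. Id genes are classic BMP targets, and Id proteins bind basic helix-loop-helix factors and keep them off DNA. In the mammary gland, TGF-beta is known for restraining ductal growth, and Id4 for its role in basal cells.

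The 3 populations came from mouse mammary tissue with no treatment named, and the labels give neither strain nor age. In the CFC fraction 1 sorted cell in 10 was a colony forming cell, a progenitor scored by its colonies in culture, and its RNA came from 3000 to 4000 cells of biological triplicates. MYO is a basal, myoepithelial fraction of about 94% purity that is poor in stem cells, from 3000 to 24000 cells. The MaSC fraction held 1 mammary stem cell, scored by transplantation, in 50 to 100 cells and came from 2000 to 4000 cells, so that most cells behind its RNA were not stem cells. Magnetic depletion before flow sorting gave CFC and MaSC, and immunomagnetic enrichment before flow sorting gave MYO.

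Each population had 3 RNA samples, each put on both chips. The basal markers and luminal markers separated CFC from the other populations. Summed over 6 genes (Krt5, Krt14, Acta2, Trp63, Oxtr and Myh11), basal signal was 9438 to 22171 in CFC, 399928 to 604425 in MYO and 334385 to 640196 in MaSC. Summed over Krt8, Krt18, Krt19, Elf5, Kit and Epcam, luminal signal was 313977 to 550339 in CFC, 31515 to 109419 in MYO and 102885 to 135568 in MaSC. Each marker sum adds 1 probe set a gene. Arrays had equal trimmed means of 1500, and 70.0% to 75.7% of probe sets reached a signal of 300 on chip A and 77.0% to 80.5% on chip B. In bulk RNA of this kind, fewer cells of a type and less RNA per cell cannot be told apart. The labels do not say whether the MYO and MaSC samples were separate animals, so p-values may measure technical spread only.

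Upstream sequence is shown for Id4, Ltbp2 and Smad1, which rose in MYO against CFC, beside Id2 and Id3, which were not called, to compare Smad-bound motifs between them. The sequences are from RefSeq (build GRCm38.p6). Each window is the 250 bases before the annotated start, written 5′ to 3′ on the gene's strand. Capitals mark CAGAC or its complement GTCTG, the core of the Smad binding element, and GGCGCC, a GC-rich sequence bound by Smad1 and Smad5. The windows lie at chr13:48260866-48261115 on the plus strand, chr12:84876492-84876741 on the minus strand, chr8:79399429-79399678 on the minus strand, chr12:25096093-25096342 on the minus strand and chr4:136143572-136143821 on the plus strand.
Id4: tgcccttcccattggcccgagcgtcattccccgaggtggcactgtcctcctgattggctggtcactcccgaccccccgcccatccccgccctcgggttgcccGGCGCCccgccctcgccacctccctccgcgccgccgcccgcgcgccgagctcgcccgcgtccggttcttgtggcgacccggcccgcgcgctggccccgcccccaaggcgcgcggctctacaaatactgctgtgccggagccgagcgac
Ltbp2: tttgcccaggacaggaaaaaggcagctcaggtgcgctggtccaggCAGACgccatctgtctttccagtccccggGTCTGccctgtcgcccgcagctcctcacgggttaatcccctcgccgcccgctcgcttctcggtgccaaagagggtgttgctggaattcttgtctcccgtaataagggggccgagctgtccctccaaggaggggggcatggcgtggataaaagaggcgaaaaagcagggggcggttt
Smad1: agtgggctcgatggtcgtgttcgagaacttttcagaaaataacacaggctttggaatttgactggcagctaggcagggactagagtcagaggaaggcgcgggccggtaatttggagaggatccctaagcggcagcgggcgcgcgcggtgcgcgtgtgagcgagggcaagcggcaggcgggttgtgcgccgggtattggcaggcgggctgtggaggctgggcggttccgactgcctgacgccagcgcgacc
Id2: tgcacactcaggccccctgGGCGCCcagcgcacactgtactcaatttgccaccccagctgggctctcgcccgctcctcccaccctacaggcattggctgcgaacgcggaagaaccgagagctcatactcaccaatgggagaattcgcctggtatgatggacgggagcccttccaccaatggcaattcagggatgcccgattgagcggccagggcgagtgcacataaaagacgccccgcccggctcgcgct
Id3: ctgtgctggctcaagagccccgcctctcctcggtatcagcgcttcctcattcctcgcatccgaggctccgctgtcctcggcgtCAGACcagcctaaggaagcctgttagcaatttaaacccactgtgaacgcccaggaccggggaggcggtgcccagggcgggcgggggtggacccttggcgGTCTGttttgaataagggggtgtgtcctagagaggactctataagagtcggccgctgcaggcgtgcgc
The Id4 window held 1 GGCGCC, 148 bases before the start, and the Ltbp2 window held CAGAC or GTCTG 205 and 176 bases before it. Smad1 had neither sequence in its window. Id2 held 1 GGCGCC at 231 bases, and Id3 held CAGAC or GTCTG at 167 and 68 bases. So these letters were present upstream of called and uncalled genes alike. For 29 members the table held 37 windows, of which 15 (40.5%) had CAGAC on either strand, against 42.2% of all 32851 windows. GGCGCC, which reads the same on both strands, was in 12 member windows (32.4%) against 9.59% of all windows, and the member windows had a median GC content of 64.4% against 52.4%. The E-box CANNTG, the site of helix-loop-helix factors that Id proteins titrate, was in 15 member windows (40.5%) against 66.2%. The palindrome GTCTAGAC was in 0 member windows and in 0.167% of all windows. A match describes the letters only and was not tested as a binding site.

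Compared with CFC, 4 pathway genes rose in MYO: Fst, Id4, Ltbp2 and Smad1. Of these, Fst, Ltbp2 and Smad1 rose in MaSC too, and none of the 40 tested members fell in either comparison. Values are log2 fold changes on the log2(signal + 150) scale with their SE, from 1 representative probe set a gene. A gene was called at a Benjamini-Hochberg adjusted p under 0.05 in limma, over all probe sets of its chip. The 4 calls of MYO against CFC were 10.0% of the tested members, where 0.900% of all 17339 tested genes were called higher and 0.450% lower. In MaSC against CFC the 3 calls were 7.5% of the members, against a background of 0.629% higher and 0.265% lower. Both comparisons use the same 3 CFC samples.

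The median log2 fold change over the 40 members was 0.37 in MYO against CFC and 0.13 in MaSC against CFC, beside -0.02 and -0.03 over all genes. It was above 0 for 29 and 22 members. The highest mean log2 signal lay in MYO for 22 members, in CFC for 10 and in MaSC for 8. On the representative probe sets, the 3 MYO samples were all above the 3 CFC samples for 8 members (Acvr1, Acvr1b, Bmp7, Fst, Id4, Ltbp2, Smad1 and Tgfbi), or 20.0%, against 6.18% of all genes, and all below for 1 (Inhbb), against 6.96%. In MaSC they were all above CFC for 9 (Acvr1, Acvr2a, Bmp1, Bmp7, Fst, Id4, Ltbp2, Smad1 and Tgfbi), against 5.80%, and all below for 3 (Inhbb, Ltbp3 and Tgfbr3), against 6.94%.

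**Figure D1:**
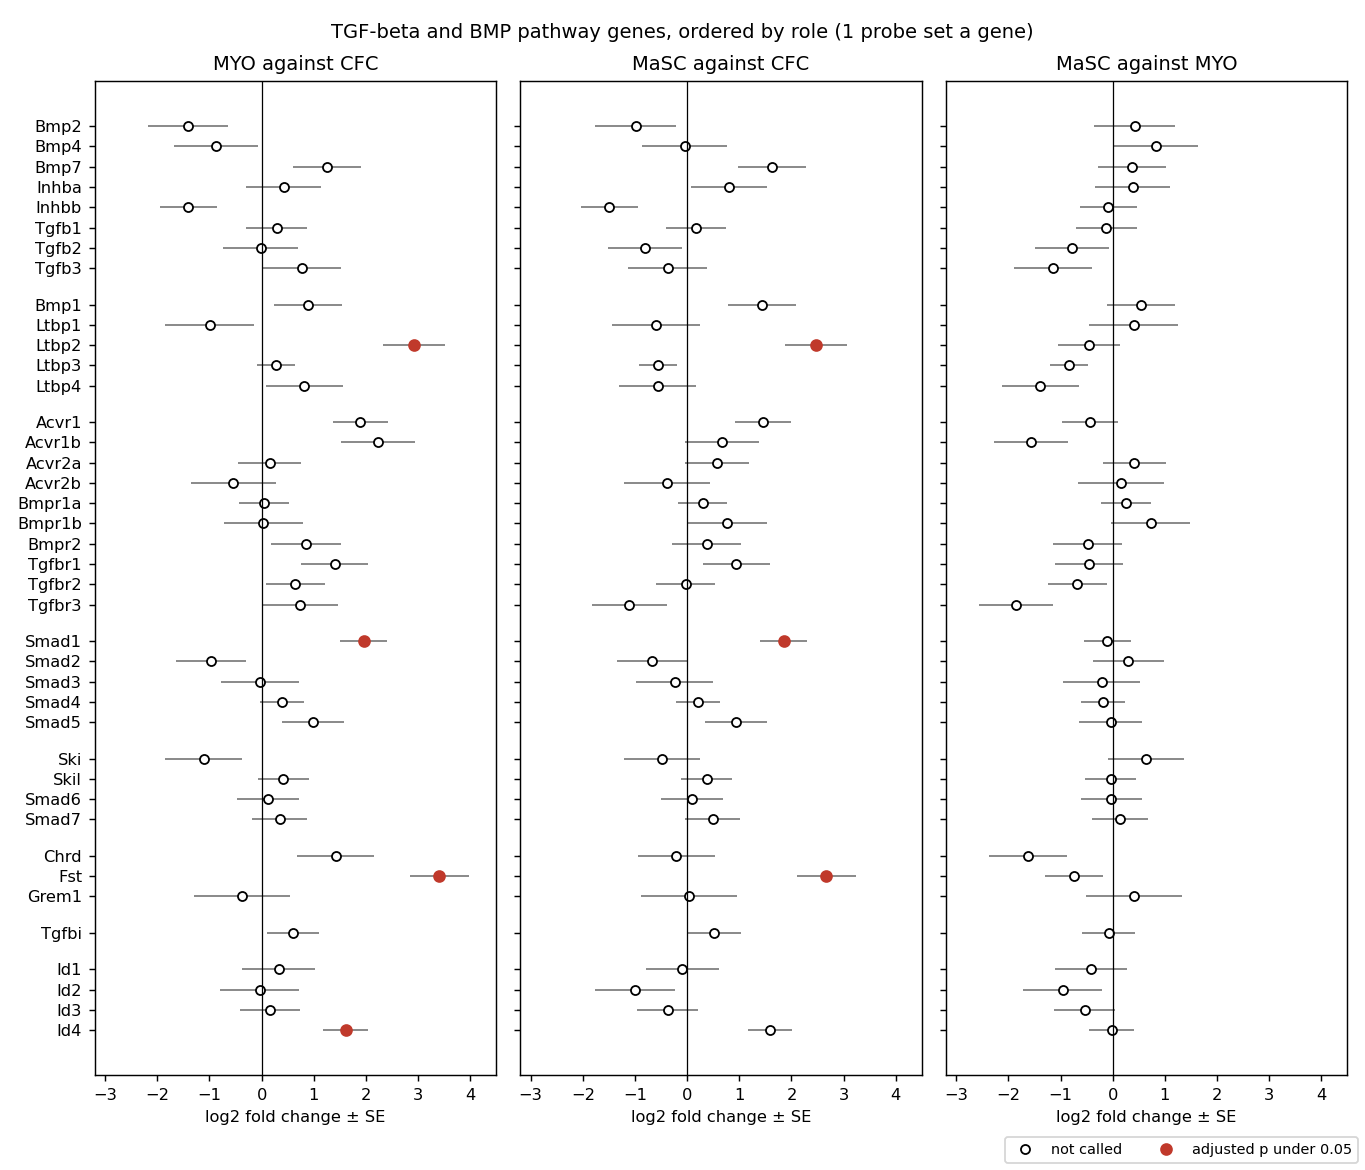
Log2 fold change ± SE (limma, 3 RNA samples a population) of the 40 tested pathway genes, ordered by role from ligands at the top to Id genes at the bottom, in 3 panels for MYO against CFC, MaSC against CFC and MaSC against MYO. Red points have an adjusted p under 0.05: Ltbp2, Smad1, Fst and Id4 in the left panel, Ltbp2, Smad1 and Fst in the middle panel, and none in the right panel.

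Fst encodes follistatin, a secreted protein that binds activin and some BMPs and blocks them. Its chip A signals were 769.8, 102 and 493 in CFC, 7861, 8206 and 2495 in MYO and 3829.6, 3866 and 2218 in MaSC. Every MYO and MaSC sample was above every CFC sample, by a log2 fold change of 3.41 ± 0.56 in MYO (adjusted p = 0.000333) and 2.66 ± 0.56 in MaSC (adjusted p = 0.00914), limma. On the linear scale these are 10.6-fold and 6.33-fold of signal + 150. A second probe set, on chip B, read 4446, 506 and 3431 in CFC, 14031, 37874 and 13077 in MYO and 10686, 16329 and 9698 in MaSC. Again no MYO or MaSC sample was as low as any CFC sample, and CFC2 was the lowest of all on both chips. Its log2 fold changes were 3.12 ± 0.57 (adjusted p = 0.00563) in MYO and 2.45 ± 0.57 (adjusted p = 0.107) in MaSC, so that on chip B the MaSC difference was not called. The chip A call in MYO held without each RNA sample in turn. In MaSC it was lost without CFC2 (adjusted p = 0.0805) or MaSC2 (0.0569), and on chip B the MYO call was lost without CFC2 (0.139) or MYO2 (0.145).

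The other secreted antagonists had no call. Chrd, the gene of the BMP antagonist chordin, had signals of 1084, 175 and 665 in CFC, 2888, 855 and 1898 in MYO and 340.4, 316 and 785 in MaSC. CFC and MYO overlapped, and all 3 MaSC samples were below all 3 MYO samples. Grem1, which encodes gremlin, another BMP antagonist, spread from 73 to 3424 over the 9 samples, and each population had at least 1 sample under 300. Its log2 fold changes were -0.37 ± 0.92 in MYO and 0.03 ± 0.92 in MaSC against CFC.

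**Figure D2:**
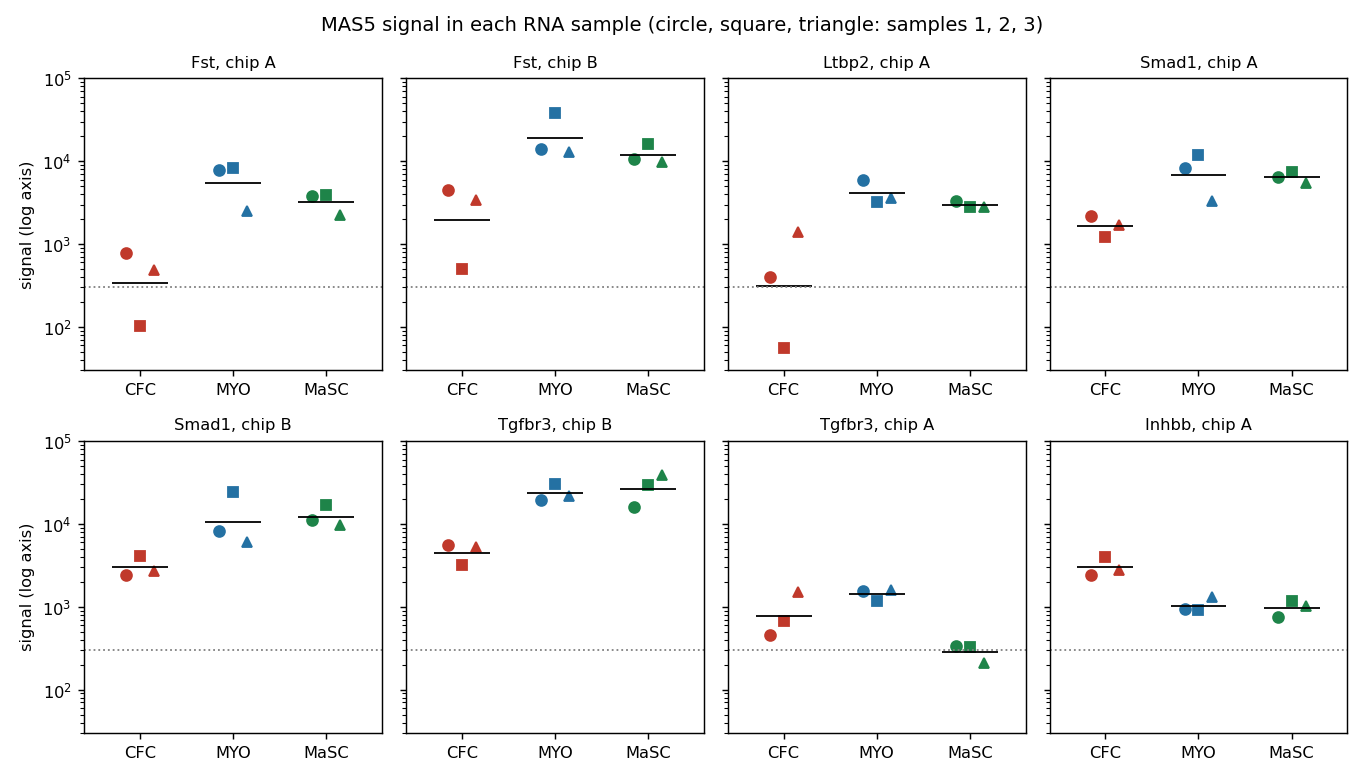
MAS5 signal (log axis) of 8 probe sets in each RNA sample of CFC, MYO and MaSC. Points are samples 1, 2 and 3, bars are geometric means of 3 samples, and the dotted line is the signal of 300 used as the filter. Fst, Ltbp2, Smad1 and the chip B probe set of Tgfbr3 lie lowest in CFC, Inhbb lies highest in CFC, and the chip A probe set of Tgfbr3 lies lowest in MaSC.

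Ltbp2 encodes a latent TGF-beta binding protein of microfibrils that, unlike its relatives, is not known to bind latent TGF-beta itself. Its single probe set read 404, 55.3 and 1405 in CFC, 6009, 3214 and 3611 in MYO and 3315, 2818 and 2791 in MaSC. CFC spread widely, yet its highest sample was below the lowest MYO and the lowest MaSC sample. The log2 fold change was 2.93 ± 0.59 in MYO (adjusted p = 0.00341) and 2.47 ± 0.59 in MaSC (adjusted p = 0.0268), limma. Without MYO1 the MYO call was lost (adjusted p = 0.0505). The MaSC call was lost without CFC1, CFC2, MaSC1, MaSC2 or MaSC3 (adjusted p = 0.0655, 0.237, 0.0666, 0.0848 and 0.0774).

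None of the other latent binding protein genes, whose products do hold latent TGF-beta, was called. Ltbp3 had signals of 14926, 14839.9 and 18818 in CFC, 24352, 20899 and 14567 in MYO and 10052, 9544 and 13200.1 in MaSC. MaSC was below every CFC and every MYO sample, by a log2 fold change of -0.57 ± 0.36 against CFC (adjusted p = 0.741), and neither difference was called. Ltbp1 had log2 fold changes of -0.997 ± 0.85 in MYO and -0.59 ± 0.85 in MaSC on chip A. On its tested chip B probe set they were -1.24 ± 0.62 and -1.68 ± 0.62. There all MYO and MaSC samples were below CFC, and every adjusted p of the gene was 0.884 or more. Another Ltbp1 probe set of chip B, too dim to be tested, ran the other way in MYO. It read 71.8, 215 and 161 in CFC and 1162, 226 and 355 in MYO. Ltbp4 spread from 134 to 2709, at 0.82 ± 0.74 in MYO and -0.56 ± 0.74 in MaSC. Bmp1, the gene of a procollagen protease that also cuts chordin and latent binding proteins, read 1429, 944 and 400.3 in CFC, 3329, 3307 and 353 in MYO and 2939, 2899.7 and 1807 in MaSC. All MaSC samples were above CFC (1.43 ± 0.65, adjusted p = 0.535), while MYO3 was below every CFC sample. A second Bmp1 probe set ran the other way, at -1.96 ± 0.80 in MYO and -0.79 ± 0.80 in MaSC, and was not called.

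Among 10 receptor genes none was called on its representative probe set, and 9 had a log2 fold change above 0 in MYO against CFC and 7 in MaSC against CFC. Acvr1, a type I receptor for BMPs, had signals of 769, 947 and 591 in CFC, 2602, 6619 and 1912 in MYO and 2561, 2316 and 2160.2 in MaSC. No MYO or MaSC sample was as low as the highest CFC sample, and the log2 fold changes were 1.90 ± 0.53 (adjusted p = 0.069) and 1.46 ± 0.53 (adjusted p = 0.32). Its other tested probe sets gave 0.77 and 0.38 in MYO, and -0.34 and 1.65 in MaSC, so that 1 of them was opposite in sign there. Acvr1b, a type I activin receptor, read 1861, 109 and 436 in CFC, 3457, 3459 and 2277 in MYO and 290.0, 1115 and 2042 in MaSC. MYO was above every CFC and every MaSC sample, by 2.23 ± 0.71 against CFC (adjusted p = 0.151), not called. A dimmer Acvr1b probe set gave -0.32.

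Tgfbr3 encodes betaglycan, a co-receptor that presents TGF-beta2 and binds inhibin, and its probe sets on the 2 chips differed. The chip B probe set read 5512, 3185 and 5249 in CFC, 19386, 30664 and 21864 in MYO and 16067, 29596 and 38512 in MaSC. CFC was below every MYO and MaSC sample, by 2.34 ± 0.42 in MYO (adjusted p = 0.00559) and 2.505 ± 0.42 in MaSC (adjusted p = 0.00332). Both were called, among only 27 and 21 probe sets called of 21394 on that chip (0.126% and 0.0982%). The chip A probe set, which is the representative because chip A came first, read 462, 670.3 and 1525 in CFC, 1536, 1173 and 1613 in MYO and 340.4, 325 and 210.5 in MaSC. There MaSC was below every sample of CFC and MYO, at -1.11 ± 0.71 against CFC (adjusted p = 0.745), and MYO was 0.74 ± 0.71 against CFC. The rise seen on chip B in MaSC is thus opposite in sign on chip A, and the files do not say which part of the transcript each reads. Without CFC2 the chip B calls were lost (adjusted p = 0.131 in MYO and 0.0836 in MaSC), as was the MYO call without MYO2 (0.065) and the MaSC call without MaSC3 (0.0961). They were also lost with the day of scanning as a block (adjusted p = 0.0544 in MYO and 0.555 in MaSC) and without limma's variance trend (0.546 and 0.577), and in MaSC on the first day of scanning alone (0.35).

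The TGF-beta kinase receptor genes Tgfbr1 (type I) and Tgfbr2 (type II) had log2 fold changes of 1.40 ± 0.65 and 0.65 ± 0.56 in MYO and 0.94 ± 0.65 and -0.03 ± 0.56 in MaSC, with adjusted p of 0.574 or more, and their populations overlapped. The BMP type I receptor genes Bmpr1a and Bmpr1b lay at 0.04 and 0.04 in MYO, and at 0.29 and 0.76 in MaSC. For the representative Bmpr1a probe set, with signals of 1498 to 3220.0, the 95% interval was -0.93 to 1.02 in MYO. On this probe set a change past 1.02 in either direction lay outside it. The 6 tested Bmpr1a probe sets ran from -0.43 to 0.64 in MYO, 3 above 0 and 3 below. Another of them had a wider interval, of -1.97 to 1.11. Bmpr2, the BMP type II receptor gene, gave 0.85 ± 0.67 in MYO on chip A and 1.14 ± 0.47 on its brighter chip B probe set (adjusted p = 0.905). The activin type II receptor genes Acvr2a and Acvr2b gave 0.16 and -0.55 in MYO. For Acvr2a all MaSC samples (1829, 1278 and 1482) were above CFC (1015, 846 and 1062), by 0.57 ± 0.61, not called.

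Smad1 encodes a Smad phosphorylated by BMP receptors. Its chip A signals were 2212, 1218 and 1702 in CFC, 8262, 11844 and 3298 in MYO and 6429, 7470.1 and 5417 in MaSC. All MYO and MaSC samples were above all CFC samples, with MYO3 the lowest of them, and the log2 fold changes were 1.95 ± 0.45 in MYO (adjusted p = 0.0122) and 1.85 ± 0.45 in MaSC (adjusted p = 0.0304), limma. On chip B the signals were 2424, 4116 and 2732 in CFC, 8132, 24351 and 6070.4 in MYO and 11134, 17029 and 9708 in MaSC. Again all MYO and MaSC samples were above all CFC samples, with log2 fold changes of 1.77 ± 0.49 and 1.97 ± 0.49, and the adjusted p over that chip were 0.371 and 0.208, not called. Another Smad1 probe set was dim, with 4 of 9 samples over 300. The MYO call was lost without CFC2, MYO1 or MYO2 (adjusted p = 0.0936, 0.0936 and 0.191), and the MaSC call without CFC2, CFC3, MaSC2 or MaSC3 (adjusted p = 0.187, 0.0848, 0.149 and 0.0584).

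The other signal-carrying Smad genes were not called. Smad5, the second BMP Smad of the list, gave 0.98 ± 0.60 in MYO and 0.94 ± 0.60 in MaSC on chip A, from signals of 481 to 2473, and -0.10 and -0.45 on its chip B probe set. Smad2 and Smad3, the Smads of TGF-beta and activin, gave -0.97 ± 0.68 and -0.03 ± 0.74 in MYO and -0.67 ± 0.68 and -0.24 ± 0.74 in MaSC. The chip B probe set of Smad2 was opposite in sign, at 0.78 ± 0.74 in MYO and 1.25 ± 0.74 in MaSC, not called. Smad3 had a bright probe set on chip B (3197 to 18695) at -0.47 ± 0.49 and -0.85 ± 0.49. Smad4, the shared partner, gave 0.39 ± 0.43 in MYO with a 95% interval of -0.47 to 1.26, and 0.21 ± 0.43 in MaSC with an interval of -0.66 to 1.08. Of its 3 tested probe sets, 2 were below 0 in both comparisons. The lowest gave -0.53 ± 0.49 in MYO, with all MYO samples below CFC, and -0.39 ± 0.49 in MaSC, not called.

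Of the inhibitory genes none was called in either comparison. Smad6 and Smad7 encode Smads that block the receptors, and both are known targets of the pathway. Their log2 fold changes were 0.12 ± 0.59 and 0.35 ± 0.53 in MYO and 0.09 ± 0.59 and 0.49 ± 0.53 in MaSC, with intervals of -1.09 to 1.33 and -0.74 to 1.43 in MYO. Ski and Skil, whose products repress Smad-bound genes, gave -1.11 ± 0.73 and 0.41 ± 0.49 in MYO and -0.48 ± 0.73 and 0.38 ± 0.49 in MaSC. The brighter chip B probe set of Ski was opposite in sign in MYO, at 0.28 ± 0.65, and gave -0.69 ± 0.65 in MaSC, not called. A second Skil probe set had all MYO and MaSC samples below CFC, by -0.73 ± 0.71 and -0.89 ± 0.71, not called.

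No ligand gene was called, and 4 of 8 had a log2 fold change above 0 in MYO and 3 of 8 in MaSC. Inhbb, which encodes the beta B chain of activins and inhibins, was the member whose representative probe set had all samples below CFC in both comparisons. Its signals were 2391, 3998 and 2785 in CFC, 932, 918 and 1295 in MYO and 745, 1173 and 1026 in MaSC. CFC was above every MYO and MaSC sample, and the log2 fold changes were -1.40 ± 0.55 (adjusted p = 0.362) in MYO and -1.49 ± 0.55 (adjusted p = 0.323) in MaSC. The second Inhbb probe set gave -0.57 and -1.18, with MYO3 at 1673 above every CFC sample, and its populations overlapped. Inhba, the gene of the beta A chain, gave 0.42 ± 0.72 and 0.80 ± 0.72, and its chip B probe set -0.87 ± 0.81 and -1.58 ± 0.81, opposite in sign.

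Bmp7, a BMP ligand gene, read 409, 557 and 289.9 in CFC, 1096, 968 and 1552 in MYO and 2278, 1399 and 1206 in MaSC. Both basal populations were above CFC in every sample, by 1.26 ± 0.65 (adjusted p = 0.679) and 1.63 ± 0.65 (adjusted p = 0.412), not called. Its second probe set read 70.1, 297 and 126 in CFC, 1868, 890.0 and 743 in MYO and 599.7, 101 and 777 in MaSC. There MYO was above every CFC sample and MaSC2 was as low as CFC, at 2.04 ± 0.77 (adjusted p = 0.32) and 0.89 ± 0.77. Bmp2 and Bmp4 gave -1.41 ± 0.77 and -0.87 ± 0.81 in MYO and -0.99 ± 0.77 and -0.05 ± 0.81 in MaSC. On the representative probe sets of the TGF-beta genes, CFC overlapped both MYO and MaSC. Tgfb1, measured on chip B only since its chip A probe set was not tested, gave 0.29 ± 0.58 in MYO, Tgfb2 -0.02 ± 0.71 and Tgfb3 0.77 ± 0.76. In MaSC they gave 0.17 ± 0.58, -0.81 ± 0.71 and -0.37 ± 0.76. For Tgfb2, 1 MaSC sample of the representative read 50.2 where the others read 1832 or more. Of the 3 other tested Tgfb2 probe sets, 1 had all MYO samples below CFC (747, 678 and 291 against 2988, 1031 and 2252), by -1.59 ± 0.76 (adjusted p = 0.611). Another had all MaSC samples below CFC (122, 48.8 and 317 against 503, 506 and 922), by -1.39 ± 0.70 (adjusted p = 0.612). The chip B one gave 0.50 ± 0.94 in MYO and -0.67 ± 0.94 in MaSC, and none was called.

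Tgfbi encodes a secreted matrix protein named for its induction by TGF-beta. Its representative probe set read 1051, 1488 and 1623 in CFC, 2195, 1894 and 2394 in MYO and 2014, 2259 and 1833 in MaSC. All MYO and MaSC samples were above all CFC samples, with log2 fold changes of 0.60 ± 0.50 (adjusted p = 0.882) and 0.52 ± 0.50 (adjusted p = 0.878). Of its 4 tested probe sets, 3 were above 0 in MYO and 1 was below (-0.73). The representative is of a design that can also bind other transcripts.

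Id4 was the only Id gene called, and its 3 probe sets, all on chip A, ran the same way. The representative read 1895, 1807 and 1825 in CFC, 8924, 6262 and 3740.0 in MYO and 7510.0, 6547 and 4061 in MaSC. CFC samples lay close together and below every MYO and MaSC sample, and the log2 fold change was 1.61 ± 0.43 in MYO (adjusted p = 0.0436) and 1.59 ± 0.43 in MaSC (adjusted p = 0.0636, not called). A second probe set read 405, 55.8 and 1394 in CFC, 3059, 6327 and 4518 in MYO and 3454, 7296 and 2916 in MaSC. It gave 3.03 ± 0.59 in MYO (adjusted p = 0.00217) and 2.96 ± 0.59 in MaSC (adjusted p = 0.00493), both called. The third read 55.5, 1237 and 819 in CFC, 5802, 7332 and 3598 in MYO and 1902, 7028 and 4796 in MaSC. It gave 3.08 ± 0.60 (adjusted p = 0.002) and 2.68 ± 0.60 (adjusted p = 0.0138), both called. On each of the 3 probe sets all MYO and MaSC samples lay above all CFC samples.

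The Id4 calls in MYO held without each RNA sample in turn on the second and the third probe set. On the representative the MYO call was lost without CFC1, CFC2, CFC3, MYO1, MYO2 or MaSC2 (adjusted p = 0.106, 0.138, 0.128, 0.354, 0.178 and 0.0553). The MaSC call was lost without CFC2 or MaSC2 on the second (adjusted p = 0.0569 and 0.0647), and without CFC1, MaSC2 or MaSC3 on the third (adjusted p = 0.134, 0.136 and 0.0679).

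Id1, Id2 and Id3, the Id genes best known as BMP targets, overlapped between all populations. Id1 read 1229, 827 and 712 in CFC, 723, 727 and 2853 in MYO and 421, 1725 and 750.1 in MaSC. Its log2 fold changes were 0.33 ± 0.70 in MYO and -0.09 ± 0.70 in MaSC, with 95% intervals of -1.09 to 1.75 and -1.51 to 1.33. Id3 read 1581, 1632 and 969 in CFC, 1216, 2349.7 and 1259.8 in MYO and 1408, 905 and 810.2 in MaSC, and gave 0.16 ± 0.58 and -0.38 ± 0.58, with intervals of -1.03 to 1.35 and -1.56 to 0.81. For Id3 the interval in MYO leaves out a rise as large as that of the representative Id4 probe set. Id2 read 957, 1482 and 1606 in CFC, 1867, 2976 and 317 in MYO and 129.5, 509 and 2011 in MaSC, with MaSC1 the lowest, and gave -0.04 ± 0.76 and -0.998 ± 0.76. A second Id2 probe set gave 0.71 ± 0.75 and 0.85 ± 0.75, and the other Id2 probe set was not tested. The difference between the fold changes of Id4 and of the other Id genes was itself not tested.

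**Figure D3:**
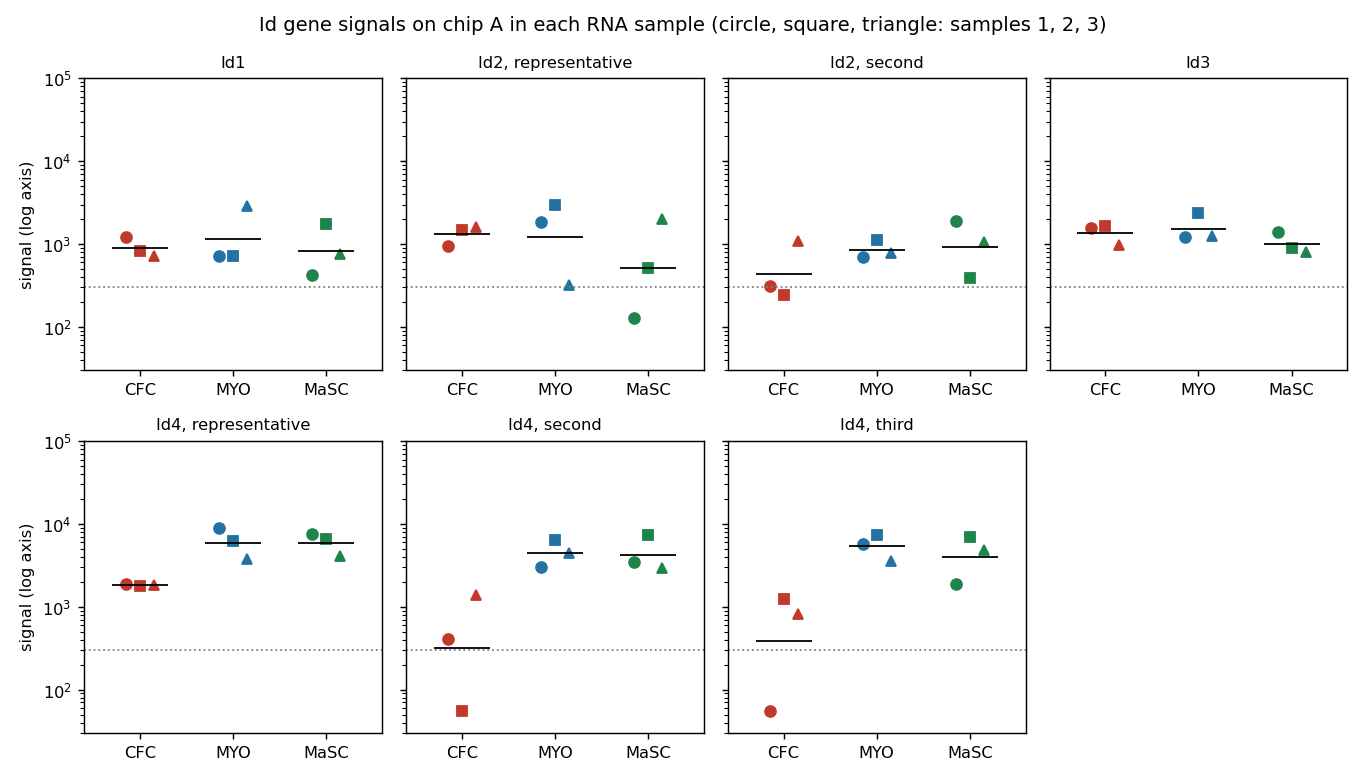
MAS5 signal (log axis) of the tested Id gene probe sets, all on chip A, in each RNA sample of CFC, MYO and MaSC. Points are samples 1, 2 and 3, bars are geometric means, and the dotted line is a signal of 300. The 3 Id4 panels have CFC below every MYO and MaSC sample, and the Id1, Id2 and Id3 panels overlap.

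Between the 2 basal populations no member was called, higher or lower, and neither was any other of the 17339 genes (a background of 0 in both directions). In limma the smallest adjusted p was 0.394 over all genes and 0.999 over the members. At an unadjusted p under 0.05 there were 668 genes (3.85%) and 4 members, all lower in MaSC: Acvr1b (-1.56 ± 0.71, unadjusted p = 0.0359), Chrd (-1.62 ± 0.74, 0.0368), Ltbp3 (-0.84 ± 0.36, 0.0276) and the chip A probe set of Tgfbr3 (-1.85 ± 0.71, 0.0147). These and Tgfb3 (-1.14 ± 0.76) were the 5 members with all MaSC samples below all MYO samples, or 12.5%, against 4.22% of all genes. None had all MaSC samples above, against 4.07%. The median over the members was -0.10, beside -0.01 over all genes, and 26 of 40 were below 0.

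For the genes called against CFC the 95% interval of MaSC against MYO was -1.89 to 0.41 for Fst, -0.90 to 0.85 for Id4, -1.66 to 0.75 for Ltbp2 and -1.02 to 0.81 for Smad1, on the log2 scale. For Tgfbr3 on chip B it was -0.70 to 1.03. The intervals therefore still held differences as large as -1.89 for Fst and -1.02 for Smad1.

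Arrays were scanned on 2 days for chip A and 3 for chip B, and every CFC array was scanned on the first day of its chip. On the first day alone, Fst had log2 fold changes of 3.12 in MYO and 2.92 in MaSC (adjusted p = 0.0107 and 0.0317), and Ltbp2 had 3.10 in MYO (adjusted p = 0.0183). Ltbp2 in MaSC (2.51, adjusted p = 0.116), Smad1 in MYO and MaSC (1.57 and 1.96, adjusted p = 0.223 and 0.0699) and the representative Id4 probe set in MYO (1.58, adjusted p = 0.186) kept their direction and were no longer called. With scan day as a block, Fst and Ltbp2 were called in MYO, while Smad1 and the representative Id4 probe set had adjusted p of 0.053 and 0.0567. The second and the third Id4 probe set kept their MYO calls under the block (adjusted p = 0.00752 and 0.0107). In MaSC the block ended the calls of Smad1 (adjusted p = 0.0968) and of the third Id4 probe set (0.0528). Chip A's later day held 1 MYO and 1 MaSC array, which differed by -1.82 for Fst, -0.61 for Id4, -0.19 for Ltbp2 and -1.11 for Smad1 (MaSC minus MYO, log2).

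Over all probe sets of the members, 6 of 68 on chip A and 2 of 21 on chip B were called higher in MYO against CFC, where 1.71% and 0.126% of the probe sets of these chips were called in either direction. In MaSC against CFC 5 and 1 were called, against 1.18% and 0.0982%. Probe sets of 1 gene often differed: of 29 members with 2 or more tested, 17 had fold changes of both signs in MYO against CFC and 15 in MaSC against CFC. The 5 genes with a called probe set, Fst, Id4, Ltbp2, Smad1 and Tgfbr3, had every tested probe set above 0 in MYO. In simulated data for MYO against CFC, 50 probe sets of each chip were changed at each size, and all unchanged ones had equal means. In the measured data 345 probe sets were called on chip A, so the simulated shares need not be theirs. A true log2 change of 2 was called for 16% of changed probe sets on chip A (20159 tested) and 6% on chip B (21394 tested). A change of 4 was called for 78% and 56%. An uncalled member may thus still differ.

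**Figure D4:**
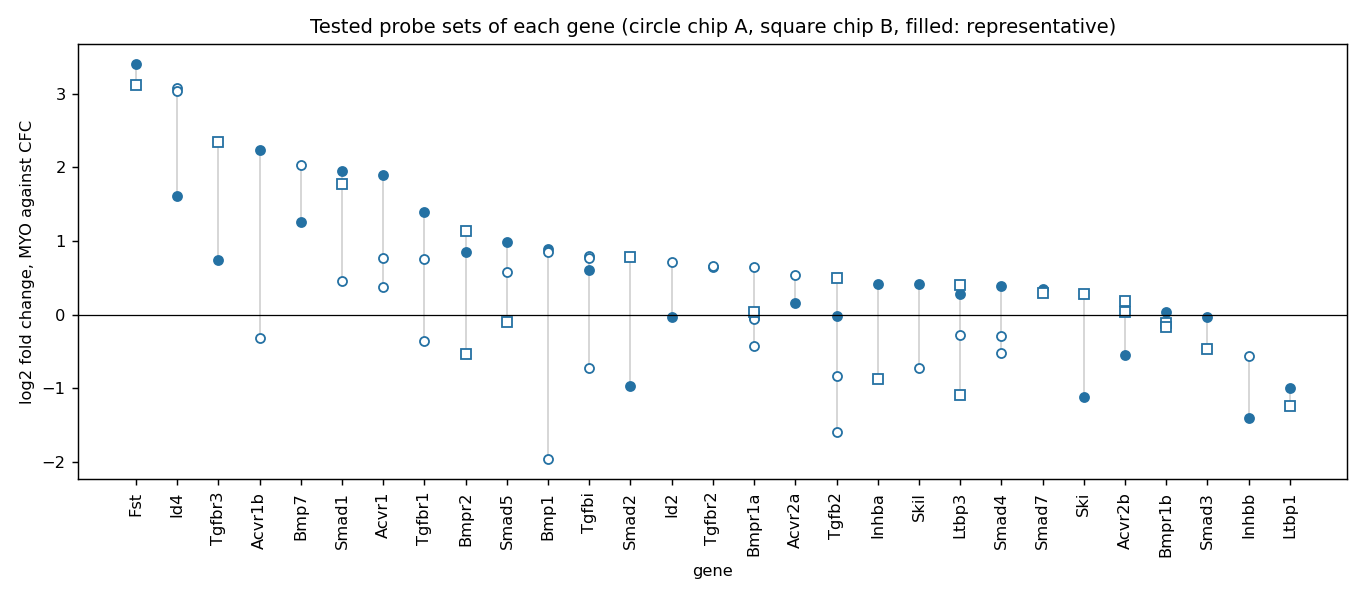
Log2 fold change of MYO against CFC for every tested probe set of the 29 members that have 2 or more, with genes ordered along the x axis by their highest value. Circles are chip A, squares chip B, and filled symbols are the representatives. Fst, Id4, Tgfbr3 and Smad1 lie wholly above 0, and Bmp1 and Tgfb2 span values above and below it.

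Other genes of the pathway were read from lists of known regulators and targets. Over all 17339 genes 0.900% were called higher and 0.450% lower in MYO, and 0.629% and 0.265% in MaSC. Of 15 tested secreted and membrane modulators, 3 rose in MYO and 2 of them in MaSC, and none fell. They were Htra1, the gene of a protease that cuts TGF-beta family proteins (5.52 ± 0.43 in MYO, adjusted p = 1.07e-09, and 4.84 in MaSC, adjusted p = 2.52e-08), Fstl1, a follistatin relative (3.77 ± 0.55, adjusted p = 6.01e-05, and 2.92, adjusted p = 0.00298) and Bgn, the TGF-beta-binding proteoglycan biglycan (1.96 ± 0.44 in MYO, adjusted p = 0.00942). Htra1 read 431, 201 and 218 in CFC, 18793, 30702 and 12318 in MYO and 8628, 12597 and 15559 in MaSC. Of 11 tested activators of latent TGF-beta, Mmp2, a gelatinase gene, rose in both (3.37 ± 0.56, adjusted p = 0.000377, and 2.63, adjusted p = 0.00965). Of 27 other intracellular pathway genes, Tgfb1i1, which encodes the focal adhesion protein Hic-5, rose in MYO (2.77 ± 0.48, adjusted p = 0.000648). Of 20 other ligands and receptors none was called. The medians of these 4 lists in MYO were 0.47, 0.21, -0.12 and 0.00, beside -0.02 for all genes.

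Of 21 tested TGF-beta response genes, 4 rose in both comparisons and none fell: Tagln and Acta2, smooth muscle cytoskeleton genes, Ccn2, a matricellular growth factor gene, and Snai2, a transcription factor gene of basal cells. Their log2 fold changes in MYO were 5.47, 5.34, 3.85 and 2.78, and in MaSC 5.26, 5.06, 2.77 and 2.48, with adjusted p of 0.0436 or less. Acta2 is also a basal marker, so it counts in both lists. The list's median was 0.80 in MYO and 0.52 in MaSC. Over all genes 0.900% were called higher in MYO and 0.629% in MaSC, and no set test was run on the list. Of 12 tested BMP response genes none was called, with medians of -0.11 and -0.29. Values there ran from -1.66 (Gata3, a luminal factor, adjusted p = 0.665) to 2.06 (Gata2, adjusted p = 0.247) in MYO. Of the 10 partners of Id proteins and related factors none was called, and Tcf4, an E protein gene, had 1.58 ± 0.53 in MYO (adjusted p = 0.195) and 1.18 in MaSC (adjusted p = 0.522).

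Markers of other cells were read beside these results. Summed over 12 fibroblast markers, signal was 15738 to 23993 in CFC, 46134, 80413 and 22990 in MYO, and 39042, 19134 and 26216 in MaSC, and 2 of the 12 were called in MYO (Col3a1 and Fstl1) and 1 in MaSC (Fstl1, also counted among the modulators). Fibroblasts can express Fst, Ltbp2, Fstl1, Htra1 and Mmp2, and the part of such cells in their rise was not tested. Over MYO1, MYO2 and MYO3 the sums ran in the same order as Fst (7861, 8206 and 2495) and Smad1 (8262, 11844 and 3298) on chip A, with MYO3 the lowest, as it was for the representative Id4 probe set (8924, 6262 and 3740.0). For Ltbp2 (6009, 3214 and 3611) the order differed. Over MaSC1, MaSC2 and MaSC3 the order differed for Fst (3829.6, 3866 and 2218) and Smad1 (6429, 7470.1 and 5417) too. Both were highest in MaSC2, where the fibroblast sum was lowest. MYO3 and MaSC2, whose sums lay inside the CFC range, read 2495 and 3866 for Fst and 3611 and 2818 for Ltbp2, where CFC read at most 769.8 and 1405. A sum does not follow each marker. Dcn, the largest in CFC, read 6433 to 13705 there, 4690 to 15400 in MYO and 5372 to 8124 in MaSC. Col1a2 read 900 to 1724 in CFC, 2355 to 14148 in MYO and 1921 to 5727 in MaSC, with no overlap with CFC. Whether fibroblasts had a part in these readings was not tested. Col1a1, Col1a2 and Dcn, which define fibroblasts, were over 300 in all 9 samples. No marker was called in 8 pericyte, 7 tested endothelial or 11 tested leukocyte markers. Their sums were 6555 to 10106, 8636 to 12658 and 7711 to 15651 in CFC, and 7366 to 11411, 6680 to 13364 and 8834 to 16026 in the basal populations. The endothelial markers Kdr, Egfl7, Esam and Cldn5 were over 300 in all 9 samples. Only Tie1, an endothelial receptor gene, was under 300 in every sample.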

How the data were processed

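The authors deposited linear intensities, 1 MAS5 signal for each probe set of each array, per the submitters' processing notes, in which no MAS5 version is stated. Every array already had a trimmed mean of 1500, so the authors' scaling was kept. Log2 of the signal plus 150 (10% of that mean) was tested with limma 3.58.1 (R 4.3.3, lmFit and eBayes with a variance trend), 1 fit per chip over all 9 arrays, with Benjamini-Hochberg adjustment over the 20159 (chip A) or 21394 (chip B) probe sets tested. This scale understates the change of dim genes, and the number of arrays limits precision. Any adjusted p in the text is from this limma test, or from its altered fit where a left-out sample, scan day or other alternative is named. A gene was represented by its chip A probe set of highest mean log2 signal, or by chip B where chip A had none. Symbols are the platform annotation's. On chip A 20380 probe sets had 1 symbol, 691 several and 1555 none (chip B 14661, 245 and 7605), and several or none were not named. Values in every sample are given for members called on any probe set or with samples apart in 2 comparisons. The members and lists were chosen with earlier results of these data known. The code was tested on simulated data. Alternatives were other pseudocounts, filters, quantile normalization, no trend, array weights, pairwise fits, scan day or replicate number as a block, other representatives, each RNA sample left out and, added after seeing the data, the first scan day alone.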

Additional observations from a re-analysis of the deposited data

How the results depend on the processing

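The number of members called higher (4 in MYO and 3 in MaSC, against CFC) fell without the variance trend to 1 (Fst) and 0, and with scan day as a block to 2 in MYO (Fst and Ltbp2). On the first scan day alone, an alternative chosen after seeing the data, it was 2 in MYO and 1 in MaSC. With the probe set of smallest F test p as representative it was 5 in MaSC (Fst, Id4, Ltbp2, Smad1 and Tgfbr3). That choice favours calls, since it picks probe sets by their difference between populations in these same data. With the probe set of highest mean on either chip, Smad1 lost its calls in MYO and MaSC (adjusted p = 0.371 and 0.208). Fst lost its call in MaSC (0.107), while the called chip B probe set then stood for Tgfbr3. Without 1 RNA sample it ranged from 1 to 5 in MYO and from 0 to 3 in MaSC, at its lowest without MYO1 in the former (1), and without CFC2 or MaSC2 in the latter (0). The cause was not tested. Only Fst in MYO kept its call in all 22 settings, at adjusted p of 3.56e-05 to 0.034. The members called lower, and those called between MaSC and MYO, stayed at 0 throughout. Tgfbr3 in MaSC against MYO turned to 0.16 with the probe set of highest mean or smallest F test p, and Bmp1 in MaSC against CFC to -0.79 with the latter, since another probe set then stands for the gene. Over all genes the calls higher ranged from 53 to 195 in MYO and from 22 to 148 in MaSC, and those lower from 23 to 106 and from 3 to 63. Quantile normalization moved the median of all genes from -0.0173 to -0.0149 in MYO. With it the representative Id4 probe set lost its MYO call (adjusted p = 0.0654), and the chip B probe set of Fst gained one in MaSC (0.0386). The same Id4 call was lost with a pseudocount of 1% of the chip mean (0.0582) and with no filter (0.0523). Id4 in MYO, read by its representative, was called in 10 of the 22 settings. With the replicate number as a block, 4 members were called higher in MYO. Pairing by these numbers was weak. Of 18 pairs 1 had a correlation of deviations over 0.1 (range -0.113 to 0.118), and in 6 of the 18 the same number was the best match. Between MYO and MaSC all correlations were positive, at 0.118, 0.077 and 0.01 on chip A and 0.062, 0.076 and 0.011 on chip B. On chip A each of these was the best match, and on chip B those of numbers 1 and 2 were. Pairs with CFC ran from -0.113 to 0.044.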
